A study of Mus musculus with 9 samples.

Results

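The fibroblast growth factor (FGF) genes of LepR+ skeletal cells were examined: the FGF ligands, their receptors and binding proteins, the FRS adaptors, and the Sprouty, Spred, Etv4, Etv5 and Dusp6 genes that FGF signalling switches on. Members were picked by a rule on gene symbols, which gave 40 of the 52459 genes in the table. The rule itself used no measured value, but it was set with earlier results of these data known. Of these 40 members, 19 had a mean of at least 10 normalized counts over the 9 libraries and were tested, 15 had reads but stayed under that minimum, and 6 had no read in any library. RNAseq was performed on cells that carry the leptin receptor (LepR), isolated from tibiae and femurs of C57B6 mice by collagenase digestion and cytometric sorting outside the hematopoietic compartment. The 3 groups were young mice (12 weeks) with no treatment, middle-aged mice (52 weeks) with no treatment, and middle-aged-treated mice (52 weeks) given sodium salicylate, a non-steroidal anti-inflammatory salt, and each had 3 libraries. No dose or duration of the salicylate was given in the sources used here, nor whether libraries came from separate mice, so p-values measure only the spread between libraries. Since every 52-week library was set against the same 3 young libraries, the comparisons share samples.

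FGFs are secreted ligands that bind receptor tyrosine kinases together with heparan sulfate. The activated receptor phosphorylates FRS2, which recruits GRB2 and SOS and starts the RAS to ERK cascade. ERK then induces its own brakes, among them the Sprouty and Spred proteins and the ERK phosphatase DUSP6, along with the ETS factors ETV4 and ETV5. In bone, FGFR1, FGFR2 and FGFR3 take part in growth and ossification, and FGF2 is a mitogen of marrow stromal cells in culture. FGF23 is made by osteocytes and acts on the kidney.

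The sort was checked first. Lepr was read at 14455 to 102235 normalized counts per library, and endothelial markers summed to only 215 to 721. Depth was 9902613 to 20746804 reads. Leukocyte genes were also present: 7 pan-leukocyte markers, Ptprc (CD45) among them, summed to 2928 to 4415 normalized counts in the young, 11432 to 26075 in the untreated middle-aged and 10436 to 11928 in the treated middle-aged libraries. The 8 neutrophil markers were far more abundant, at 41117 to 65695 in the young and 93419.7 to 255114 in the 52-week libraries. The 12 LepR+ stromal markers ran the other way, at 639007 to 789676, 109688 to 428096 and 446484 to 571873 in the 3 groups, as did the sum of the 7 osteoblast markers, at 25824 to 30925, 3815 to 12982 and 17128 to 18598. Most of the osteoblast sum was Ibsp, at a mean of 22807 of 27564 in the young. Phex did not follow it, at 2614 to 2763 in the young, 4155, 3735 and 1084 in the untreated and 4180 to 6336 in the treated libraries. The 6 chondrocyte markers summed to 1924 to 14732 in the young and 143 to 1514 in the 52-week libraries. The part of these other cell types in the members' levels was not tested. Middle-aged replicate 3 stood apart, with the lowest stromal sum, a size factor of 0.364 against 0.891 to 1.67 in the others, antibody genes at 32.6% of its reads, and more neutrophil than stromal marker counts. Antibody genes were not confined to it, at 3.25% and 16.5% of reads in middle-aged replicates 1 and 2. They made up 1.53% to 8.33% in the treated and 0.107% to 0.479% in the young libraries. In bulk RNA, fewer stromal cells and less of a transcript per stromal cell cannot be told apart.

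**Figure D1:**
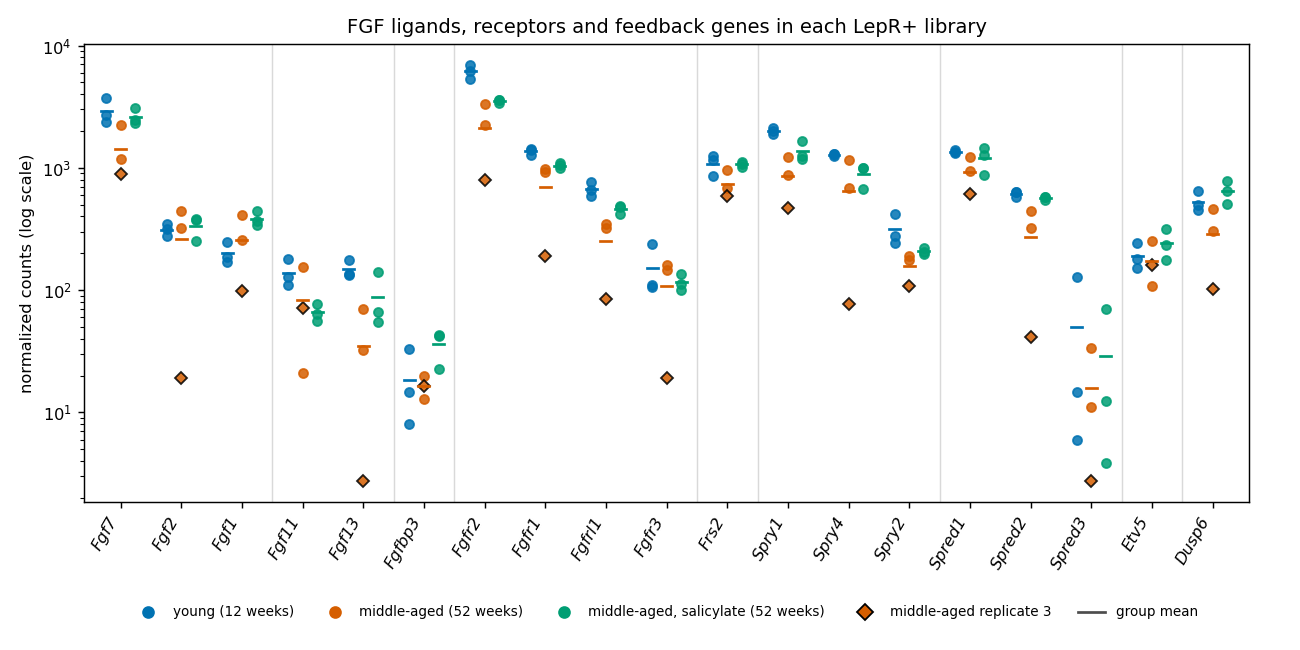
Normalized counts (log scale) of the 19 tested FGF members in each of the 9 libraries, by role from ligands on the left to Dusp6 on the right; lines are group means of 3 libraries and the black-edged diamond is middle-aged replicate 3. Fgfr2 had the highest mean in each group, at 789 to 6957 normalized counts per library, though Fgf7 was above it in middle-aged replicate 3 (888.5). The diamond is the lowest of the 9 points for 16 of the 19 members.

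Among the 15 secreted paracrine ligands, Fgf7 was the abundant one. Fgf7, keratinocyte growth factor, is made by mesenchymal cells and signals mainly through the epithelial splice form of FGFR2. It stood at 2711, 2373 and 3709 normalized counts in the young, 2243, 1179 and 888.5 in the untreated middle-aged and 2319, 2464 and 3065 in the treated middle-aged libraries. Every untreated middle-aged library was below every young and every treated one, while young and treated libraries overlapped. Per kilobase of the longest annotated transcript, Fgf7 made up 78.3% to 91.9% of the summed paracrine ligand level in a library.

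Fgf2, basic FGF, came next by its mean over the 9 libraries, at 303 normalized counts against 280 for Fgf1. In the treated group Fgf1 averaged more (384 against 336), as it did per kilobase over all libraries (70.3 against 50.8). Libraries held 278, 314 and 346 normalized counts of Fgf2 in the young, 445, 320.4 and 19.3 in the untreated middle-aged and 250.4, 384 and 373 in the treated middle-aged mice. The 3 groups overlapped, and middle-aged replicate 3 was far below the other 8 libraries. Exons of Fgf2 share 640 bases with Nudt6 on the opposite strand, and since no strand setting was given in the sources used here, reads there cannot be told apart. Nudt6 itself averaged 7.38 normalized counts. Other tested members also overlapped a gene on the opposite strand: Fgfr1 (164 bases, Gm16159), Fgfr3 (998, G630022F23Rik), Spred3 (202, Ggn) and Spry1 (710, Gm42922). Those genes averaged 14.7, 0.429, 15.5 and 0.636 normalized counts.

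Fgf1, acidic FGF, which can bind every FGF receptor, was read at 169, 187 and 249 normalized counts in the young, 408, 258 and 99.0 in the untreated middle-aged and 442, 340.0 and 369.7 in the treated middle-aged libraries. All 3 treated libraries were above all 3 young ones, and the untreated middle-aged libraries spanned both. Fgf1 was the sole tested member, 1 of 19, whose treated libraries were all above the young ones, as were those of 8.99% of all genes.

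The other 12 paracrine ligands stayed under the minimum. Fgf18, which acts on chondrocytes and osteoblasts, had 3, 10 and 14 reads summed over the young, middle-aged and middle-aged-treated libraries, and Fgf10, the other mesenchymal ligand of epithelial FGFR2, had 0, 1 and 6. Fgf4, Fgf5, Fgf6, Fgf20 and Fgf22 had no read. A count of 0 allows up to 3 reads, which is 1.79 to 8.25 normalized counts depending on the library, and covers counting error only.

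Levels of the ligands were then compared within a library. Per kilobase, Fgf7 was 12.5-fold above Fgf1 (mean log2 ratio 3.65 ± 0.67, SD, n = 9) and 19.6-fold above Fgf2 (4.29 ± 1.0), each in 9 of 9 libraries (exact permutation test that flips the sign of each library, two-sided, p = 0.0039 and adjusted p = 0.0042 over 13 pairs of members). It was also above Fgf10 and Fgf18 in 9 of 9 libraries, with the same p. The p of 0.0039 is the smallest that 9 libraries can give. For a pair with a member under the minimum, such as Fgf10 or Fgf18, it adds nothing to the low read counts.

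Of the intracellular FGFs, which are not secreted and modulate sodium channels in neurons, Fgf11 and Fgf13 were tested. Fgf13 stood at 134, 175 and 136 normalized counts in the young, 32.55, 70.1 and 2.75 in the untreated middle-aged and 54.85, 141 and 66.8 in the treated middle-aged libraries. The untreated middle-aged libraries were all below the young ones, and the treated libraries overlapped both groups. Fgf11 was at 180.3, 111 and 127, then 155, 21.1 and 71.5, then 77.4, 55.6 and 63.7, so the treated libraries were all below the young ones. Fgf12 and Fgf14 were under the minimum.

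Fgfr2 was the most abundant receptor in every library and the member with the highest mean count in each group. It lies on chromosome 7 (GRCm38, 130162451 to 133123350, minus strand), has 27 annotated transcripts, and counts per gene cannot separate its epithelial and mesenchymal splice forms. This annotated span reaches past the RefSeq start used for the Fgfr2 promoter below. Exons of Fgfr2 share 314 bases with Ctbp2 on the same strand, which averaged 201 normalized counts. Fgfr2 was read at 6957, 6160 and 5308 normalized counts in the young, 3348, 2254 and 789 in the untreated middle-aged and 3614, 3566 and 3361 in the treated middle-aged libraries. All 6 libraries of 52 weeks were below all 3 young ones. The 3 treated libraries were close to each other and all above the untreated middle-aged ones.

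Fgfr1, the receptor usually linked to mesenchymal cells, was lower. It had 1423, 1277 and 1399 normalized counts in the young, 977, 921 and 189.8 in the untreated middle-aged and 994, 1049 and 1086 in the treated middle-aged libraries, in 3 ranges that did not overlap. Fgfrl1, a receptor-like protein that lacks the kinase domain, had 585, 761 and 665, then 323, 346 and 85.3, then 420.1, 479 and 487, again with no overlap. Fgfr3, a brake on growth plate chondrocytes, stood at 111, 237 and 107, then 147, 160.2 and 19.3, then 99.4, 112 and 136, and its groups overlapped. Fgfr4 had 1, 1 and 7 reads in the 3 groups.

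Per kilobase, Fgfr2 was 4.17-fold above Fgfr1 (the log2 ratio of Fgfr1 to Fgfr2 was -2.06 ± 0.31, SD, n = 9, with Fgfr2 higher in 9 of 9 libraries), and Fgfr1 was 7.16-fold above Fgfr3 (adjusted p = 0.0042 for each, exact sign-flip permutation test). Fgfr1 and Fgfrl1 did not differ beyond their spread, at a log2 ratio of 0.08 ± 0.23 with single libraries from -0.37 to 0.48 (adjusted p = 0.32, exact sign-flip permutation test). The order of the receptors per kilobase was therefore Fgfr2, then Fgfr1 and Fgfrl1, then Fgfr3, then Fgfr4 near 0. Fgfr2 made up 81.7% ± 1.88 of the summed level of Fgfr1 to Fgfr4 in the young, 75.8% ± 5.63 in the untreated middle-aged and 77.2% ± 1.66 in the treated middle-aged libraries (SD, n = 3 each).

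Fgfbp3, a carrier protein that releases FGFs from the matrix, was low, at 7.99, 32.9 and 14.6 normalized counts in the young, 12.85, 20.02 and 16.5 in the untreated middle-aged and 22.6, 42.5 and 43.1 in the treated middle-aged libraries. The treated libraries were all above the untreated middle-aged ones. Fgfbp1 had no read.

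Frs2, the docking adaptor of the FGF receptors, stood at 1239.6, 1151 and 863 normalized counts in the young, 964, 685 and 583 in the untreated middle-aged and 1083, 1011 and 1115 in the treated middle-aged libraries, and the treated range lay above the untreated middle-aged one. Its paralog Frs3 was under the minimum, with 8, 17 and 49 reads per group, and was below Frs2 in 9 of 9 libraries per kilobase. With so few reads, the adjusted p of 0.0042 (exact sign-flip permutation test) adds nothing to these counts.

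Spry1 led the Sprouty genes, which encode feedback inhibitors of receptor tyrosine kinase signalling. It was read at 1994, 1888 and 2113 normalized counts in the young, 1223, 869.9 and 470.4 in the untreated middle-aged and 1189, 1668 and 1246 in the treated middle-aged libraries. All 6 libraries of 52 weeks were below all 3 young ones. Spry4 had 1246, 1295 and 1296, then 1163, 681 and 77.0, then 667, 995 and 1001, and Spry2 had 278, 242 and 422, then 176, 191 and 107, then 219, 198 and 206. Both showed the same absence of overlap with young, and middle-aged replicate 3 was lowest for each. Per kilobase, Spry1 was 4.53-fold above Spry2 and 2.90-fold above Spry4, in 9 of 9 libraries each (exact sign-flip permutation test, adjusted p = 0.0042).

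Spred1, a membrane-bound inhibitor that brings neurofibromin to RAS, had 1397, 1344 and 1322 normalized counts in the young, 944, 1227 and 611 in the untreated middle-aged and 873, 1453 and 1277 in the treated middle-aged libraries, and the untreated middle-aged libraries were all below the young ones. Spred2 had 633, 631 and 574, then 320.4, 446 and 41.3, then 579, 573 and 543, so that the untreated middle-aged libraries lay below both other groups. Spred3 ranged from 2.75 to 129 with overlapping groups.

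Of the transcription factors and phosphatase downstream of ERK, Etv5 was read at 242, 180.1 and 153 normalized counts in the young, 254, 109 and 159.55 in the untreated middle-aged and 232, 175 and 318 in the treated middle-aged libraries, with overlap throughout. Etv4 was under the minimum, with 26, 7 and 58 reads per group, and below Etv5 in 9 of 9 libraries per kilobase. Here too the adjusted p of 0.0042 (exact sign-flip permutation test) adds nothing to the low reads. Dusp6, which removes phosphate from ERK, stood at 494, 451 and 646 in the young, 459, 301 and 102 in the untreated middle-aged and 503, 777 and 645 in the treated middle-aged libraries. Its treated libraries were all above the untreated middle-aged ones and overlapped the young ones.

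The promoters of the leading ligand, receptor and Sprouty gene are shown because these members had the highest counts of their roles, and that of Spry2 because it holds a motif tied to this pathway. Each is the 250 bases before the RefSeq start (GRCm38.p6), with motif matches in capitals. They lie at chr2:126034408-126034657 (plus strand, Fgf7), chr7:130266809-130267058 (minus strand, Fgfr2), chr3:37639697-37639946 (plus strand, Spry1) and chr14:105896820-105897069 (minus strand, Spry2).
Fgf7: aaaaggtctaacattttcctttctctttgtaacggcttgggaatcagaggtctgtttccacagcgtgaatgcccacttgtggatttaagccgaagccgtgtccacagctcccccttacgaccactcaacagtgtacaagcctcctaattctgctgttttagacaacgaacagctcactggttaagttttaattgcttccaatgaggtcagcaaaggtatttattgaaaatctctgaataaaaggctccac
Fgfr2: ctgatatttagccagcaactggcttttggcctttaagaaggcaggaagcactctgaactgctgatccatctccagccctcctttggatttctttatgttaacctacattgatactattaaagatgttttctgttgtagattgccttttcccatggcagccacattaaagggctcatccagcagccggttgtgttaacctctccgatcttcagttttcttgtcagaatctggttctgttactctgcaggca
Spry1: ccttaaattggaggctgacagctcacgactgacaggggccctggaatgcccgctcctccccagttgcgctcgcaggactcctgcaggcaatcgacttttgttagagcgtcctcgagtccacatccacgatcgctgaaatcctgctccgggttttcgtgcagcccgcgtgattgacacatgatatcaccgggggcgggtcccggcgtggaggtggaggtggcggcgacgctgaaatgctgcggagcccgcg
Spry2: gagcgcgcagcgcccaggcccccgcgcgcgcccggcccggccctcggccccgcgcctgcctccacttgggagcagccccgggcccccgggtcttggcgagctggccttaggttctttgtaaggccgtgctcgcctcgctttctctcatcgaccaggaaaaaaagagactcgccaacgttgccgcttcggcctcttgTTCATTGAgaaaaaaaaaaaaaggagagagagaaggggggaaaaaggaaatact
The capitals in Spry2 mark TTCATTGA, the reverse complement of the octamer TCAATGAA read by Capicua, a repressor that ERK signalling relieves at FGF response genes. The octamer was searched as TGAATGAA or TCAATGAA on both strands, and 1.7% of the 32851 RefSeq promoters held it. Among the 31 members with a promoter in the table, Fgf21, Fgfbp3, Spred3 and Spry2 held it. The ETS core CCGGAAG was in Fgfrl1 and Frs2 (6.91% of all promoters) and the AP-1 site TGACTCA in Fgf12 (4.46%). The CRE site TGACGTCA (1.55%) was in no member. These are matches of letters only, and the searches do not overlap each other.

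The comparison of middle-aged with young mice asked what age changed. Most FGF members had lower counts in the middle-aged libraries on the authors' scale, but no member passed the test of limma on log2(normalized count + 1) with Benjamini-Hochberg adjustment over 14998 genes, where 0.873% of all genes were called lower and 2.14% higher. The log2 fold change was below 0 for 17 of the 19 members (53.6% of all genes). On a scale set by the stromal genes it was below 0 for 5 of 20, Fgf21 included (median of all genes 1.40). On the authors' scale the members' median was -1.11, against -0.08 for all genes, -1.40 for the 12 stromal markers and 2.01 for the leukocyte markers. At an unadjusted p under 0.05, 11 of 19 members were lower (13.0% of all genes), and 10 of 19 were lower with no overlap between the groups (15.1% of all genes). Without middle-aged replicate 3 the members' median was -0.52, against -0.03 for all genes, and 15 of 19 were below 0, while 10 of 19 were again lower with no overlap (19.1% of all genes).

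Closest to the threshold was Spry1, at a log2 fold change of -1.33 (SE 0.32, adjusted p = 0.0505). Fgfr2 followed at -1.75 (SE 0.42, adjusted p = 0.0522), Fgfrl1 at -1.65 (SE 0.46, adjusted p = 0.0775) and Fgf7 at -1.11 (SE 0.33, adjusted p = 0.0894). Fgf13 had the largest fitted difference, -2.83 (SE 0.91, adjusted p = 0.111), which was -1.60 (adjusted p = 0.0858) without middle-aged replicate 3. Values for the other members with no overlap ran from -0.60 for Spred1 to -1.75 for Spred2. Without middle-aged replicate 3, Spred2 was at -0.69, Spry4 at -0.52 in place of -1.69, Fgfr1 at -0.52 in place of -1.30 and Spred1 at -0.33. Fgf1 was at 0.14 (SE 0.45, adjusted p = 0.877).

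These calls sat on the edge of the threshold and turned on single libraries and on the tool. DESeq2 on the recovered reads called 5 members lower, namely Fgf7, Fgf13, Fgfr2, Fgfrl1 and Spry1 (4.15% of all genes), whereas edgeR called 0. Fgfr2 and Spry1 were called lower with a pseudocount of 5 (1.18% of all genes) and with a mean of at least 50 (1.36%), and Fgfr2 alone with the replicate number as a block (0.273%). Without middle-aged replicate 3, Fgfr2 (-1.15, adjusted p = 0.00516), Spry1 (-0.95, adjusted p = 0.021) and Fgfrl1 (-0.99, adjusted p = 0.0234) were called lower, as were 2.62% of all genes. Without middle-aged replicate 1, which had the highest stromal sum of its group, 7 members were called lower (Dusp6, Fgf7, Fgfr1, Fgfr2, Fgfrl1, Spry1 and Spry4), as were 8.34% of all genes, and leaving out any of the other 7 libraries called 0.

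**Figure D2:**
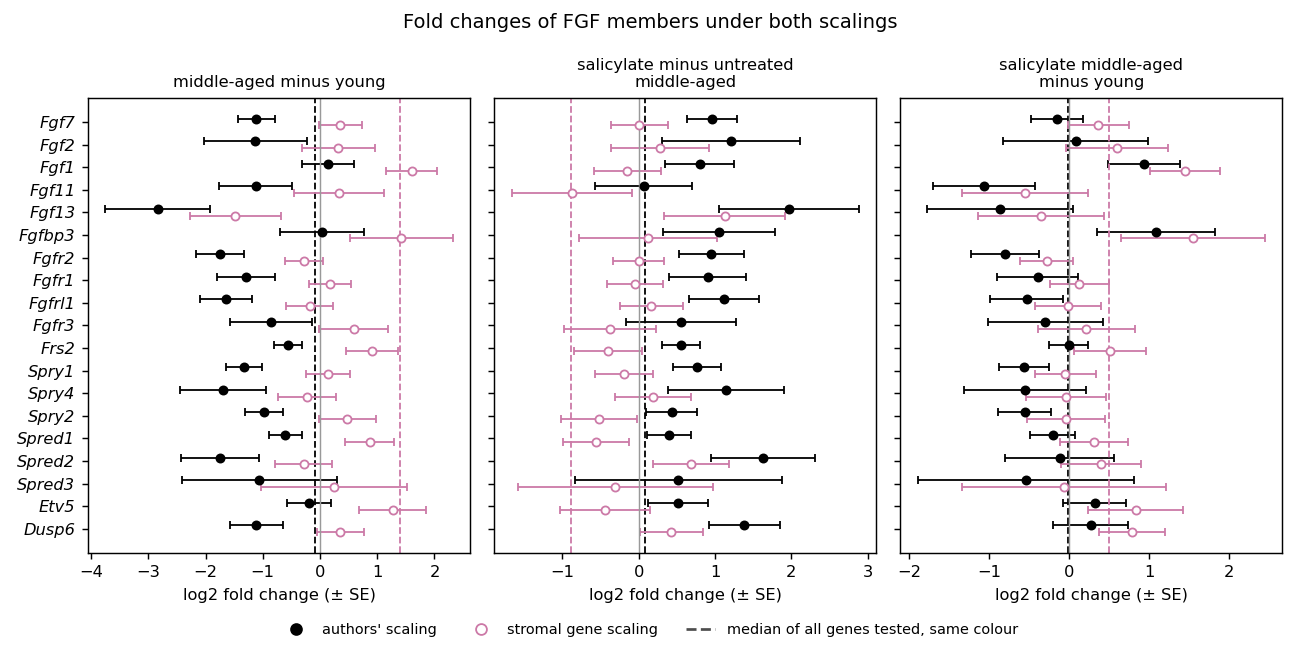
Log2 fold change (± SE, limma) of the 19 tested members in each comparison, under the authors' scaling (filled) and with each library scaled to its stromal gene sum (open), with dashed lines at the median of all genes tested. In the left panel the members' median was -1.11 beside -0.08 for all genes under the authors' scaling. Under stromal scaling it was 0.34 beside 1.40, with Fgf21, not drawn, as a 20th member. That scaling divides every gene of a library by 1 factor and so moves members and all genes in the same direction.

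The medians of members and stromal genes lay close, so each member was also read against the summed stromal counts of its library. Cxcl12 made up most of this sum. Its mean was 496853 of 699876 in the young, 203878 of 291813 in the untreated and 345284 of 490292 in the treated middle-aged libraries. Levels per this stromal sum were thus mainly levels relative to Cxcl12. Scaling by this sum moved the median of all genes from -0.08 to 1.40 between middle-aged and young mice, and the members' median to 0.34. Since it divides every gene of a library by the same factor, the gap between members and all genes changed little. The minimum mean was applied again after scaling, so 15403 genes and 20 members, Fgf21 among them, entered these medians. Fgf21 passed it mainly through middle-aged replicate 3, at 50.2 per 100000 stromal counts against 0 to 3.42 in the other libraries. Per 100000 stromal counts, no member was lower in all middle-aged than in all young libraries (1.66% of all genes), and 4 of 19 were higher, Dusp6, Fgf1, Frs2 and Spred1, where 50.2% of all genes were higher.

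Fgfr2 and Spry1 were among the 15 of 19 members that overlapped between middle-aged and young libraries on this scale. Fgfr2 stood at 891 ± 193 per 100000 stromal counts in the young, 723 ± 57.3 in the untreated middle-aged and 728 ± 122 in the treated middle-aged libraries (SD, n = 3 each), and Spry1 at 287 ± 16.6, 324 ± 91.8 and 285 ± 80.2. The ranges of the 3 groups overlapped for both. Fgf13 was the lowest on this scale too, at -1.48 on the log2 scale (SE 0.79, adjusted p = 0.155, limma), and at -0.74 with middle-aged replicate 3 also left out.

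**Figure D3:**
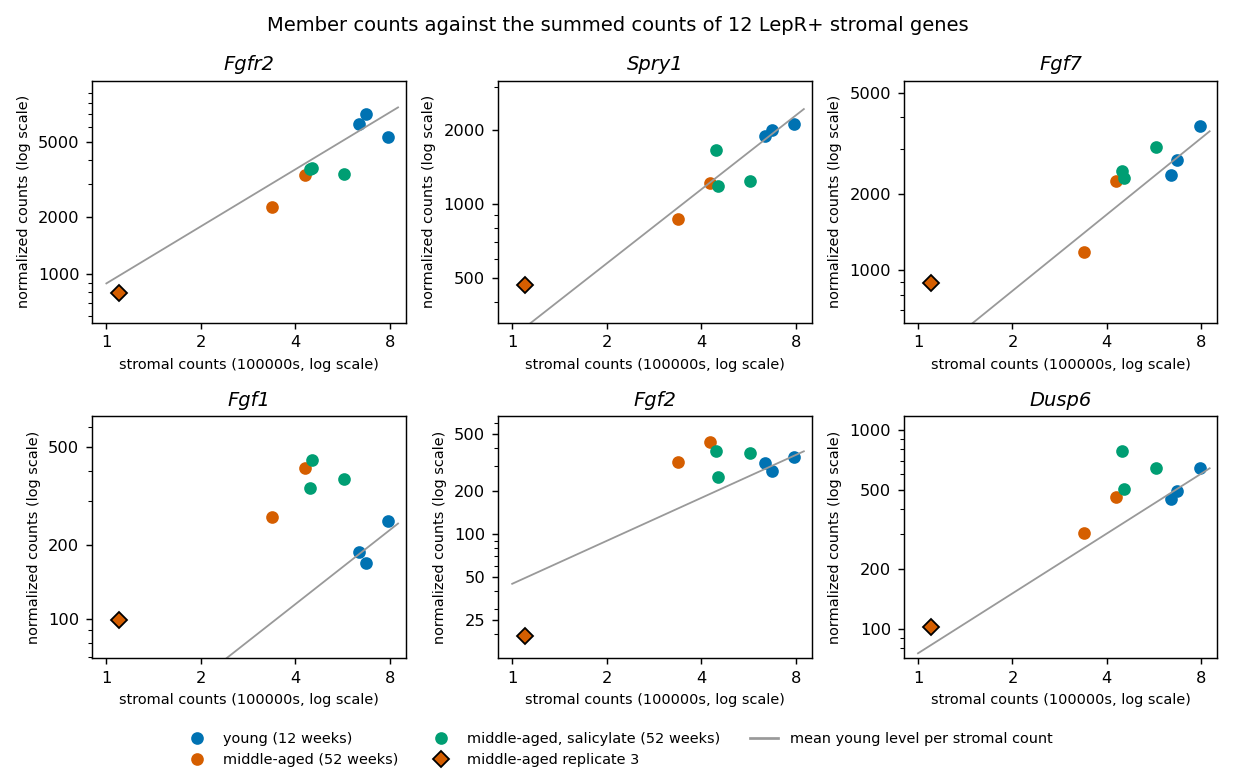
Normalized counts of 6 members against the summed counts of the 12 stromal genes in each of the 9 libraries (both axes log scale), with a line at the mean young level per stromal count and a diamond for middle-aged replicate 3. Levels of Fgfr2 and Spry1 per stromal count overlap between the groups. All 6 Fgf1 points of 52 weeks lie above the line, at 64.7 to 97.7 per 100000 stromal counts.

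Fgf1 did not follow the stromal genes. Per 100000 stromal counts it stood at 25.1, 29.3 and 31.6 in the young, 95.2, 76.4 and 90.3 in the untreated middle-aged and 97.7, 76.2 and 64.7 in the treated middle-aged libraries. The lowest 52-week value was above the highest young one, middle-aged replicate 3 included. On this scale Fgf1 was called higher in middle-aged than in young mice (log2 fold change 1.60, SE 0.44, adjusted p = 0.0356, limma), as were 20.4% of all genes, and with middle-aged replicate 3 left out as well it was at 1.57 (adjusted p = 0.00517), with Fgf2 at 1.15 (adjusted p = 0.0161) and 26.9% of all genes called higher. The median of all genes was 1.40 with every library and 0.84 with middle-aged replicate 3 left out.

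A ratio of 2 members within a library needs no scaling, and it set Fgf1 apart from most of the family. The ratio of Fgf1 to Fgfr2 counts was 2.43%, 3.04% and 4.70% in the young, 12.2%, 11.5% and 12.5% in the untreated middle-aged and 12.2%, 9.53% and 11.0% in the treated middle-aged libraries. Untreated and treated libraries of 52 weeks overlapped, and both were above all young ones (exact permutation test, p = 0.1 for each, the smallest that 3 against 3 libraries can give). Of its ratios to the other 18 members, 11 were higher without overlap in middle-aged than in young libraries, against 16.9% of its ratios to all other genes. In middle-aged-treated against young libraries the same held for 15 of 18, against 52.0%. The ratio of Fgf1 to Lepr, the sorted marker, was 0.188% to 0.244% in young and 0.487% to 0.708% in 52-week libraries. Leukocyte markers were also higher in all 6 of those libraries, and their part in the Fgf1 level was not tested.

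The ratio of Dusp6 to Fgfr2 did not overlap between the 3 groups, though by narrow margins (12.2% against 12.9%, and 13.7% against 13.9%). It was 7.10%, 7.32% and 12.2% in the young, 13.7%, 13.4% and 12.9% in the untreated middle-aged and 13.9%, 21.8% and 19.2% in the treated middle-aged libraries (exact permutation test, p = 0.1 for each pair of groups). Per 100000 stromal counts, Dusp6 ran from 70.6 to 81.7 in the young, 89.3 to 107 in the untreated middle-aged and 111 to 174 in the treated middle-aged libraries, again without overlap, and 6 of 19 members were higher on this scale in all treated than in all young libraries (29.3% of all genes). Of the ratios of Dusp6 to the other 18 members, that to Fgfr2 was the sole one higher without overlap in middle-aged than in young libraries, and 1 was lower (2.95% of its ratios to all other genes were higher and 26.5% lower). In middle-aged-treated against young libraries 10 of 18 were higher (13.6% of its ratios to all other genes). Between treated and untreated middle-aged libraries, only those to Fgfr2, Spred1 and Spry1 were higher without overlap. The share over all genes was not computed for that comparison. These ratios were singled out after their values were seen. The ratios of Fgf7 and Spry1 to Fgfr2 overlapped between all groups.

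**Figure D4:**
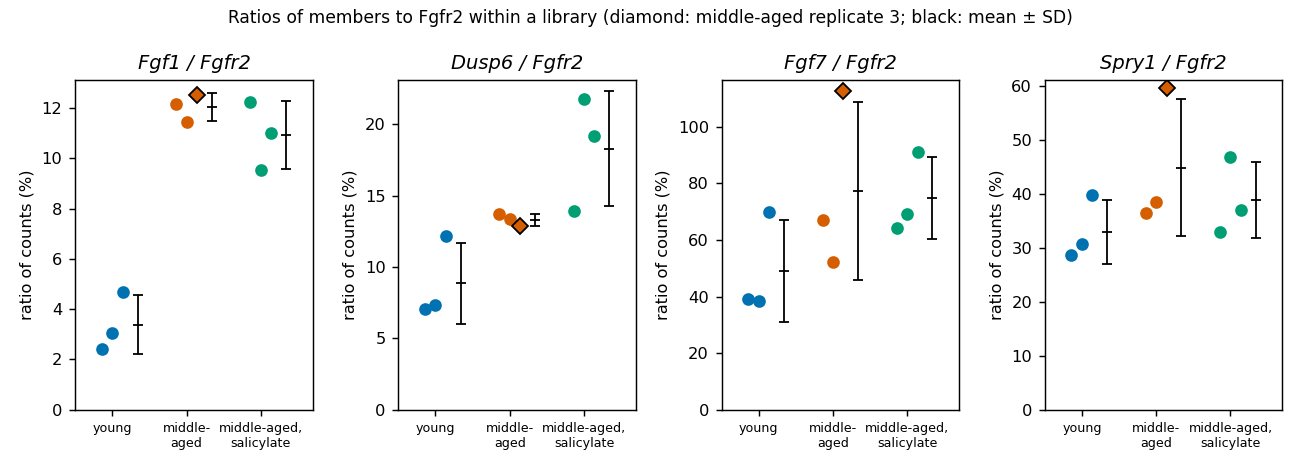
Counts of Fgf1, Dusp6, Fgf7 and Spry1 as a percentage of Fgfr2 counts in the same library, by group, with the mean ± SD of 3 libraries in black and middle-aged replicate 3 as a diamond. The Fgf1 ratio was at most 4.70% in young and at least 9.53% in 52-week libraries, and that of Spry1 overlapped between the groups.

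The comparison of treated with untreated middle-aged mice asked what salicylate changed at 52 weeks. On the authors' scale all 19 members had a log2 fold change above 0 with treatment, where 45.3% of all genes were below 0. With stromal scaling 12 of 20, Fgf21 included, were below 0, and the median of all genes was -0.88. No member was called under either scaling. No gene in the table was called by limma here (0.0% of all genes), 7 of 19 members were higher at an unadjusted p under 0.05 (6.38% of all genes), and neither edgeR nor DESeq2 called a member (DESeq2 called 0.12% of all genes higher and 0.173% lower). The members' median was 0.91, beside 0.09 for all genes and 0.85 for the stromal markers. Without middle-aged replicate 3 it was 0.35, beside 0.01 for all genes, and Fgf2, Fgfr3, Spred3 and Spry4 were below 0. Higher without overlap were 9 of 19 members (8.19% of all genes): Dusp6, Fgf7, Fgfbp3, Fgfr1, Fgfr2, Fgfrl1, Frs2, Spred2 and Spry2. Without middle-aged replicate 3 the count was again 9 of 19 (11.7% of all genes).

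Dusp6 was at 1.38 (SE 0.47), Fgf7 at 0.97 (SE 0.33), Fgfrl1 at 1.12 (SE 0.46) and Fgfr2 at 0.95 (SE 0.42) in this comparison, each with an adjusted p of 0.496 (limma). Without middle-aged replicate 3 the value was 0.35 for Fgfr2, 0.46 for Fgfrl1, 0.67 for Fgf7 and 0.76 for Dusp6. On the stromal scale Fgfr2 was at -0.00085 and the median of all genes at -0.88. Per 100000 stromal counts, Dusp6 was the sole member higher in all treated than in all untreated middle-aged libraries (1.78% of all genes), and 0 of 19 members were lower (20.7% of all genes).

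Against young mice, the middle-aged-treated libraries were lower without overlap for 7 of 19 members (9.9% of all genes), Fgf11, Fgfr1, Fgfr2, Fgfrl1, Spry1, Spry2 and Spry4, and higher for Fgf1 (8.99% of all genes). None was called by limma, which called 0.207% of all genes higher and 0.0% lower, nor by edgeR or DESeq2 (1.77% higher and 0.26% lower). By limma, 0 members had an unadjusted p under 0.05 (5.07% of all genes higher, 1.85% lower). Fgf1 was at 0.94 (SE 0.45, adjusted p = 0.775) and Fgfr2 at -0.80 (SE 0.42, adjusted p = 0.834). Fgfr2 was called lower when these groups were fitted alone (adjusted p = 0.0132, 0.991% of all genes called lower) and without middle-aged replicate 3 (adjusted p = 0.0277, 0.776%), with the same fold change. With stromal scaling and middle-aged replicate 3 left out, Fgf1 was called higher (1.45, adjusted p = 0.0109, limma), as were 4.62% of all genes. The members' median was -0.30, beside -0.01 for all genes and -0.52 for the stromal markers.

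By the F test over the 3 conditions, 0 of 19 members were called (0.647% of all genes), the lowest adjusted p being 0.139 for Spry1. This count was 3 without middle-aged replicate 1 (5.03% of all genes), 2 without middle-aged replicate 3 (3.88%), 2 with DESeq2 (6.33%) and 2 with stromal scaling and middle-aged replicate 3 left out (15.7%).

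Other genes of the pathway were read from a list of 45, of which 42 were tested. None was called in any comparison by limma. Between middle-aged and young mice, 9 of 42 were lower at an unadjusted p under 0.05 (13.0% of all genes), and the list's median was -0.14. Gab1, a docking protein downstream of FRS2, stood at 1513, 1462 and 1456 normalized counts in the young, 917, 469 and 223 in the untreated middle-aged and 794, 759 and 1048 in the treated middle-aged libraries (middle-aged against young, log2 fold change -1.69, SE 0.41, adjusted p = 0.0541). Sdc4, a heparan sulfate proteoglycan that helps FGF2 bind, was at -1.41 (SE 0.37, adjusted p = 0.0642). Il17rd, an inhibitor of FGF receptor signalling, was at -0.05 (SE 0.43), and Phex, a bone gene whose loss raises FGF23, at -0.08 (SE 0.43).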

How the data were processed

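RNAseq libraries of LepR+ cells from 9 samples, 3 per group, were compared. Per the labels and methods, the authors used bcl2fastq, STAR, the mm10/GRCm38 genome, featureCounts on exons and DESeq2 normalization; versions, gene annotation and strandedness were not given in the sources used here. The deposited signal values are gene counts divided by 1 size factor per library, with 2 decimals, without log or division by length. Whole reads were recovered from these steps: 100% of values were whole within 0.1, and they were rounded.

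The main test was limma 3.58.1 (trend, all 9 libraries, a pseudocount of 1, genes with a mean of at least 10, adjusted p under 0.05). Alternatives were edgeR 4.0.16 (middle-aged against young: 277 genes higher, 54 lower) and DESeq2 1.42.0 (1001 higher, 623 lower) on recovered reads, other pseudocounts, filters and scalings, a replicate block, 2 conditions alone and each library left out. The limma fit was tested on simulated data. Lengths, positions and exon overlaps came from GENCODE M21 (GRCm38, 91.5% of symbols matched), promoters from RefSeq. Spry3 is not analysed here.

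Values were printed for each library where 2 groups of a member did not overlap and 1 mean reached 50, and for the leading member of each role; Fgf2, Fgfr3 and the ratios were added after their values were seen. Members, lists and alternatives were chosen with earlier results of these data known.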

Additional observations from a re-analysis of the deposited data

How the results depend on the processing

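Between middle-aged and young mice, 0 members were called lower by the main test. Called lower were 2 with a pseudocount of 5 (1.18% of all genes) and 2 with a mean of at least 50 (1.36%), Fgfr2 and Spry1 in each. With DESeq2 5 were called (4.15%), and with the replicate block 1 (Fgfr2, limma adjusted p = 0.0497, 0.273%). When a library was left out 0 to 7 were called (8.34% of all genes where 7 were). Called higher were 1 member with stromal gene scaling (20.4% of all genes) and 2 with stromal scaling and middle-aged replicate 3 left out (26.9%), an alternative chosen after seeing the data. Between middle-aged-treated and young mice, 1 member was called lower when the 2 conditions were fitted alone (0.991% of all genes). When a library was left out 0 to 1 were called lower (0.776% where 1 was). With stromal scaling and middle-aged replicate 3 left out 1 was called higher (Fgf1, 1.45, limma adjusted p = 0.0109, 4.62%). By the F test, 2 members were called with DESeq2 (6.33% of all genes) and 2 with stromal scaling and middle-aged replicate 3 left out (15.7%). When a library was left out 0 to 3 were called (5.03% where 3 were).

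Stromal scaling reversed the sign of 12 of 19 members between middle-aged and young mice, namely Dusp6 (0.35), Etv5 (1.27), Fgf2 (0.32), Fgf7 (0.36), Fgf11 (0.33), Fgfr1 (0.17), Fgfr3 (0.59), Frs2 (0.91), Spred1 (0.87), Spred3 (0.24), Spry1 (0.14) and Spry2 (0.48). With middle-aged replicate 3 also left out 12 were reversed, among them 0.050 for Fgf7, 0.35 for Fgfr1, 0.54 for Spred1, 0.18 for Spred2, 0.14 for Spry2, 0.35 for Spry4 and 1.15 for Fgf2. Between treated and untreated middle-aged mice 11 of 19 were reversed, Etv5 (-0.44), Fgf1 (-0.15), Fgf11 (-0.88), Fgfr1 (-0.046), Fgfr2 (-0.00085), Fgfr3 (-0.38), Frs2 (-0.40), Spred1 (-0.56), Spred3 (-0.30), Spry1 (-0.19) and Spry2 (-0.52), and 10 without that replicate, among them Fgfr1 (-0.22), Fgfr2 (-0.0026) and Spry2 (-0.18). Between treated and young mice 6 were reversed under each, at 0.37 for Fgf7, 0.13 for Fgfr1, 0.22 for Fgfr3, 0.51 for Frs2, 0.31 for Spred1 and 0.40 for Spred2. The scaling moved the median of all genes from -0.08 to 1.40, from 0.09 to -0.88 and from -0.01 to 0.50 in the 3 comparisons, in the direction opposite to the stromal sum. Leaving out middle-aged replicate 3 alone reversed Fgf2 and Fgfr3 between middle-aged and young mice and Fgf2, Fgfr3, Spred3 and Spry4 between treated and untreated mice. When a library was left out, Fgf1 ran from -0.31 to 0.70 and Fgf2 from -1.95 to 0.28 between middle-aged and young mice.

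Fgfr1 against Fgfrl1 was at 1.2 without division by length, where it was called, and at 0.033 to 0.14 when a library was left out, and was called without young replicate 2. The other 12 pairs kept their order and call under each alternative. Same-numbered libraries correlated at only -0.01 to 0.12 in their deviations, yet 7 of 9 libraries correlated best with one of their own number. These values do not settle whether replicate numbers pair the libraries, and the block changed no other call. A gene at 0 reads can hide up to 3 reads, so members under the minimum were not tested between groups. The cause of the remaining changes was not tested.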

Other observations

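Among the members under the minimum, several had reads in few libraries. The metabolic hormone Fgf21 had 20 reads in middle-aged replicate 3, 24 and 6 in middle-aged-treated replicates 1 and 3, and 0 in the other 6 libraries. Fgf23 had 34 reads in middle-aged-treated replicate 2 and 9 in middle-aged replicate 2, with at most 2 in each of the others. Fgf8 had 7 reads in middle-aged-treated replicate 3 and 1 in replicate 2, and Fgf3 had 6 in middle-aged-treated replicate 2 alone. Fgf15, the intestinal hormone in the mouse, had 1 read in all. Fgf14 had 58 of its reads in young replicate 2 and 23 in middle-aged replicate 1. Etv4 had 26, 7 and 58 reads in young, middle-aged and middle-aged-treated libraries, 39 of the last in replicate 1.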
